A study of Mus musculus with 8 samples.

Results

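The T, NK, B and plasma cell markers are 38 genes, chosen by name, that mark the lymphocytes of the uterus. They are 38 of the 52308 genes of the deposited count table, in which each was found by its Ensembl gene ID. Of the 38, 18 mark T cells, 11 mark NK cells or the cytotoxic granules that NK and T cells share, 5 mark B cells and 4 mark plasma cells. The study sequenced polyadenylated RNA from whole uteri of female ICR mice, an outbred stock, aged 6 to 8 weeks, and no allele or treatment is given for any group. A vaginal smear placed each mouse in proestrus, estrus, metestrus or diestrus, and each of the 4 stages has 2 libraries, of 17863546 to 21896786 counts each. Whether each library is a mouse of its own is not in the labels, so a p-value measures the spread between libraries, which may be technical.

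T cells read antigen through a receptor that signals through the CD3 chains and the kinases Lck and Zap70. NK cells carry no such receptor, depend on interleukin 15 and kill with perforin and granzymes. B cells carry surface immunoglobulin with the signalling chains Cd79a and Cd79b, and plasma cells secrete antibody, at mucosal surfaces mainly IgA joined by the J chain, which the receptor Pigr carries through the epithelium. The uterus changes its epithelium and its leukocytes with the sex steroids of the cycle.

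The members covered a wide range of levels, given here in CPM, counts scaled to a common library total after TMM adjustment. Mean levels were under 1 CPM for 10 members, 1 to 10 CPM for 22, 10 to 100 CPM for 3 and higher for 3. Per kilobase of exonic length, the kappa light chain constant gene Igkc stood highest, at a mean of 1429 CPM per kb over the 8 libraries, followed by the IgA heavy chain gene Igha at 331 and Jchain at 58.9. Other annotated genes overlap Igkc, Cd247 and Foxp3, and without the strand setting of the counting their reads could not be told apart from those of these members. The IgM heavy chain gene Ighm followed at 23.9 CPM per kb, with no library of it reaching the lowest library of Igha. The granule protein Nkg7 at 5.33 CPM per kb, the interleukin 2 and 15 receptor chain Il2rb at 4.89, the kinase Lck at 3.54 and the NK receptor Ncr1 at 2.90 overlapped one another across libraries. Cd79b, a B cell member, came next at 2.87 CPM per kb. The T cell receptor constant genes Trbc2 and Trac followed at 2.52 and 2.51 CPM per kb and could not be ordered beyond their spread.

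**Figure D1:**
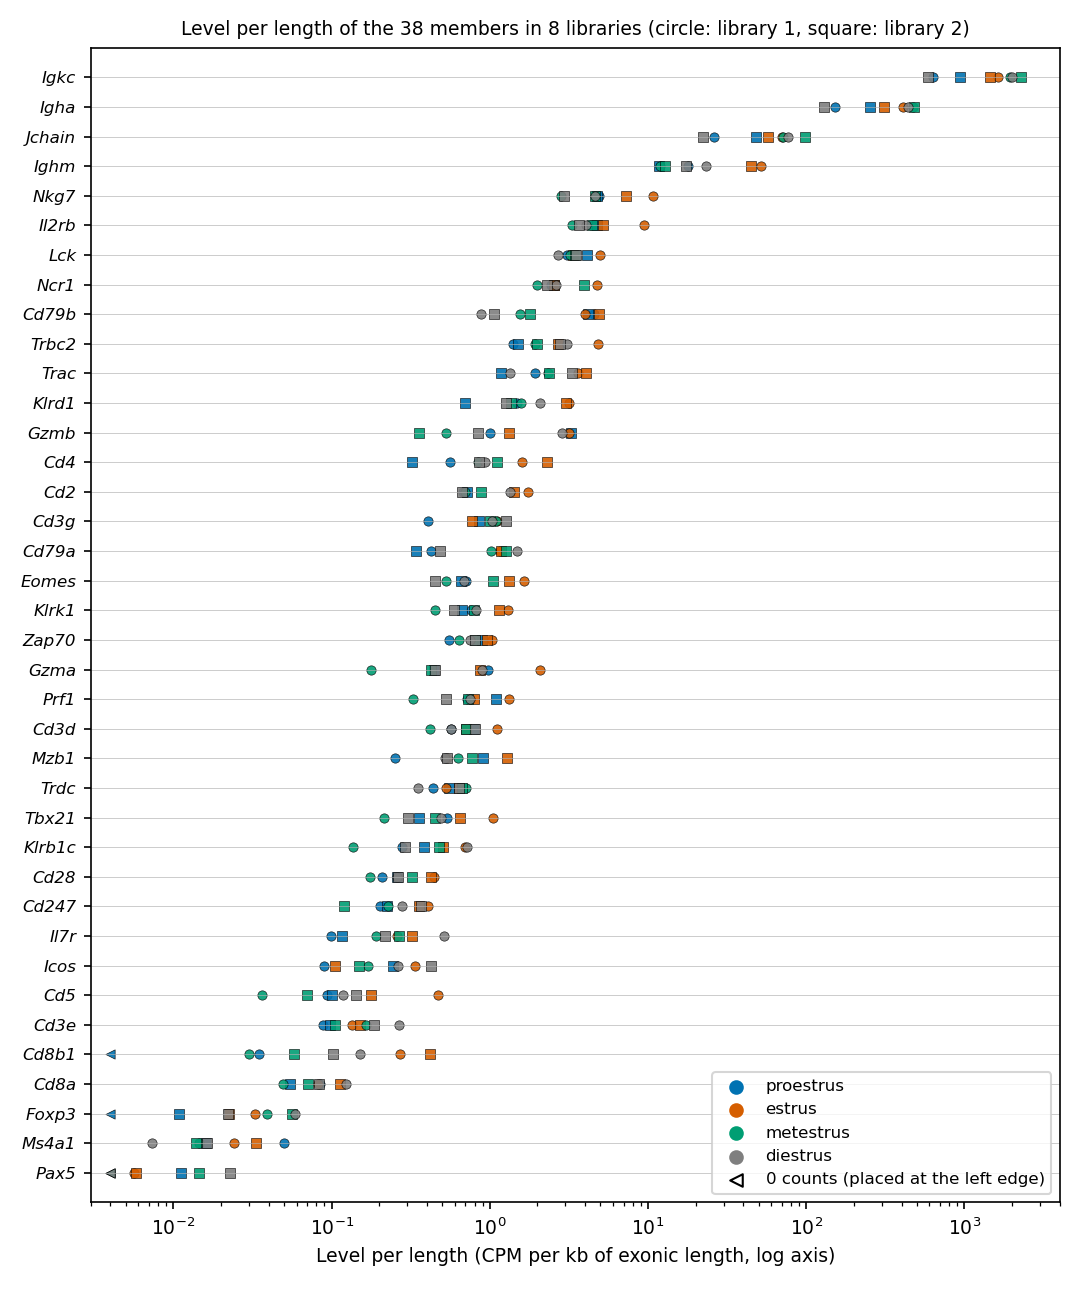
Level per length, in CPM per kilobase of exonic length on a log axis, of each of the 38 members, ordered by the mean over 8 libraries. Each point is a library, coloured by stage, and triangles at the left edge mark libraries with 0 counts. Igkc, Igha, Jchain and Ighm lie above the rest, and Foxp3, Ms4a1 and Pax5 lie lowest.

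Counts were enough for the test for 15 of 18 T cell members, 11 of 11 NK and cytotoxic members, 3 of 5 B cell members and 4 of 4 plasma cell members. Low levels were not limited to B cells. The T cell members Cd3e, Cd5 and Icos, the cytotoxic member Gzma and the plasma cell member Mzb1 were tested with means under 1 CPM. Ms4a1, which encodes CD20, had 1 to 6 counts in a library and 22 in all 8, and Pax5, the factor that fixes B cell identity, had 0 to 4 and 11 in all. The B cell members with counts to compare were therefore Ighm, Cd79a and Cd79b. Among T cell members, Foxp3, the factor of regulatory T cells, had 0 to 6 counts in a library, Cd8a 4 to 10 and Cd8b1 0 to 12. These 5 members, Cd8a, Cd8b1, Foxp3, Ms4a1 and Pax5, were too low for the test, and the other 33 were tested. A member with low counts could pass the filter through the stage where it is high, so the counts below describe the 33 and not the list of 38.

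Summed over the 18 T cell members, the level was 25.2 and 31.1 CPM in proestrus, 52.3 and 45.3 CPM in estrus, 31.5 and 35.0 CPM in metestrus and 34.3 and 38.4 CPM in diestrus. The 11 NK and cytotoxic members summed to 43.6 and 47.0 CPM in proestrus, 92.3 and 58.4 CPM in estrus, 30.0 and 46.5 CPM in metestrus and 47.2 and 34.3 CPM in diestrus. Both estrus libraries stood above the other 6 in each of these sums. The 5 B cell members summed to 41.0 and 28.8 CPM in proestrus, 105 and 93.5 CPM in estrus, 26.3 and 28.8 CPM in metestrus and 47.6 and 35.4 CPM in diestrus, again highest in both estrus libraries, and most of that sum was Ighm. The 4 plasma cell members differed from the other lineages in that both metestrus libraries were highest. They summed to 809 and 1298 CPM in proestrus, 2131 and 1735 CPM in estrus, 2474 and 2750 CPM in metestrus and 2437 and 712 CPM in diestrus, where library 1 was near metestrus and library 2 was the lowest of the 8.

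**Figure D2:**
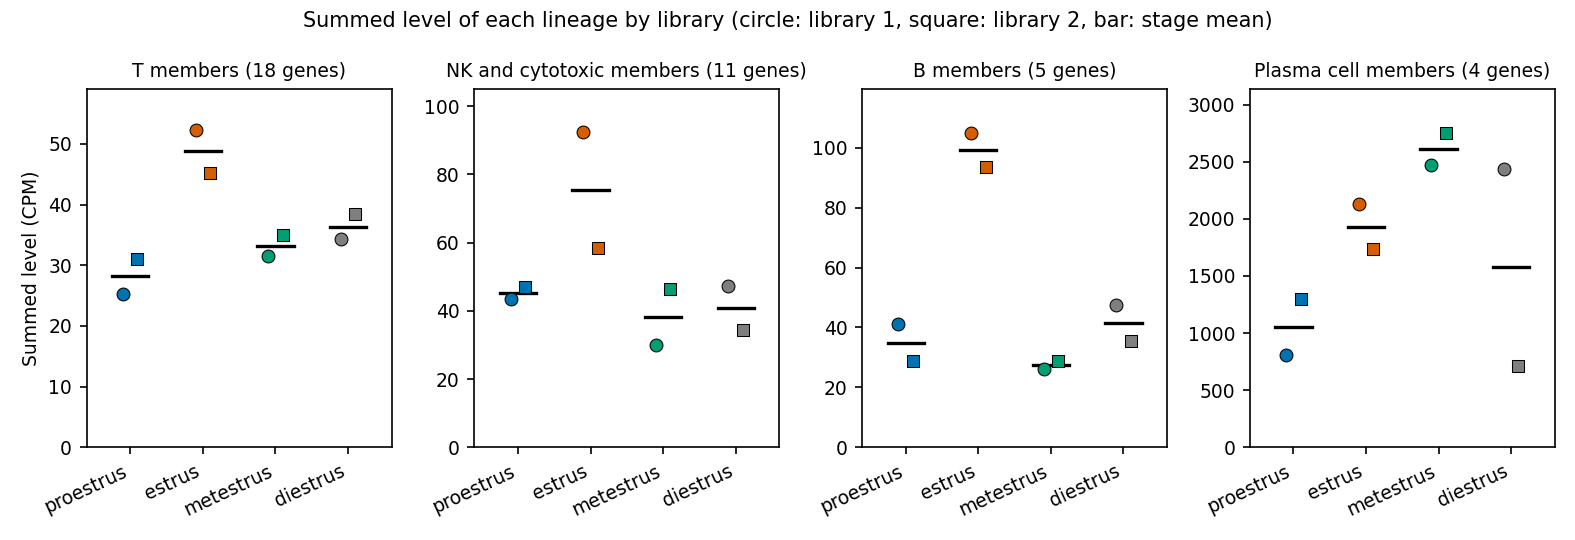
Summed level in CPM of the members of each lineage, by stage, with a panel and a linear axis from 0 for each lineage. Circles and squares are libraries 1 and 2 and bars are stage means. The T, NK and B sums peak in both estrus libraries, and most of the B sum is Ighm. The plasma cell sum is highest in both metestrus libraries and splits in diestrus.

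The log2 ratio of the summed level in estrus over proestrus was 0.79 for T cell members, 0.74 for NK and cytotoxic members, 1.51 for B cell members and 0.88 for plasma cell members, with SDs of the difference of 0.26, 0.47, 0.38 and 0.53 (n = 2 libraries each, no test). Without Lck, the highest T cell member, the T cell value was 1.06. Without Ighm the B cell value was 0.23. In bulk tissue, fewer cells of a type and less RNA per cell cannot be told apart.

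Some genes of other leukocytes moved with these sums. The 7 genes of a list shared by leukocytes, among them Ptprc, which encodes CD45, rose in estrus over proestrus and fell in metestrus below estrus, 7 of 7 in each comparison. Ptprc itself had 80.7 and 66.2 CPM in estrus, against 31.4 and 25.3 CPM in proestrus. Of 10 macrophage genes, 6 rose in estrus over proestrus and 8 fell in metestrus below estrus. Dendritic cell genes followed in part: of 8, 5 rose in estrus over proestrus and 1 fell in metestrus below estrus. Summed, these 8 genes had 317 and 356 CPM in proestrus and 706 and 1264 CPM in estrus. They had 683 and 628 CPM in metestrus and 934 and 891 CPM in diestrus, so that estrus and diestrus overlapped. Genes of red blood cells moved with these sums too, with 97.2 and 124 CPM over 5 genes in estrus, against 50.7 to 79.5 CPM in the other 6 libraries. Of the 4 of them tested, 1 rose in estrus over proestrus and 3 fell in metestrus below estrus. Over all genes tested, 8.12% rose in the first of these comparisons and 19.5% fell in the second. Per 100 Ptprc counts, T cell member counts came to 80.3 and 123 in proestrus libraries, 64.8 and 68.4 in estrus libraries, 109 and 79.8 in metestrus libraries and 70.4 and 94.4 in diestrus libraries. The NK and cytotoxic members came to 139 and 186 per 100 in proestrus libraries, 114 and 88.2 in estrus libraries, 104 and 106 in metestrus libraries and 96.8 and 84.4 in diestrus libraries. Relative to Ptprc, neither of these lineages was highest in estrus, and both estrus libraries were the lowest 2 for T cell members. The B cell members, mostly Ighm, came to 131 and 114 per 100 in proestrus libraries, 130 and 141 in estrus libraries, 91.3 and 65.6 in metestrus libraries and 97.5 and 87.1 in diestrus libraries, so that estrus had the highest stage mean and overlapped proestrus. The plasma cell members came to 2573 and 5127 per 100 in proestrus libraries, 2641 and 2619 in estrus libraries, 8591 and 6271 in metestrus libraries and 4998 and 1752 in diestrus libraries, highest in both metestrus libraries. The part of these leukocyte and blood genes in the results was not tested.

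Each gene was tested with edgeR's quasi-likelihood method, and a call is a Benjamini-Hochberg adjusted p under 0.05 over the 18114 genes tested. Across the 4 stages, 4 of the 33 tested members changed, Cd4 (adjusted p = 0.0191), Cd5 (0.0425), Cd79b (0.00383) and Ighm (0.00421), a share of 12.1% against 39.1% of the genes tested. By stage mean, 25 of the 33 were highest in estrus. Metestrus was highest for Trdc, Igkc, Jchain and Igha, and diestrus for Cd3e, Cd3g, Icos and Il7r.

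In estrus over proestrus, 33 of 33 tested members had a positive log2 fold change, with a median of 0.84 against 0.01 over all genes tested. Both estrus libraries lay above both proestrus libraries for 23 of the 33 (69.7%), against 34.2% of the genes tested, and no tested member had both below, against 33.3%. Few of these differences passed the test: Cd4 and Ighm rose, 2 of 33 against 8.12% of the genes tested. By edgeR none fell, against 6.94%, and at an unadjusted p under 0.05 there were 12 higher and 0 lower. DESeq2 called 3 higher and 0 lower. By lineage both estrus libraries were above for 10 of 15 T cell members, 8 of 11 NK and cytotoxic members, 2 of 3 B cell members and 3 of 4 plasma cell members.

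In metestrus over estrus the median log2 fold change of the members was -0.91, against -0.05 over all genes tested. Both metestrus libraries lay below both estrus libraries for 21 of 33, against 40.2% of the genes tested, and above them for 4, against 36.3%. Cd5, Il2rb, Gzma, Nkg7, Cd79b and Ighm fell, 6 of 33 against 19.5%. By edgeR none rose, against 16.7% of the genes tested, with 0 higher and 14 lower at an unadjusted p under 0.05 and 0 higher and 7 lower by DESeq2. The lineages differed here in their counts: 10 of 11 NK and cytotoxic members had both metestrus libraries below, and 3 of 4 plasma cell members had both above. For 1 of these 3, Jchain, the margin was 178.3 CPM in metestrus library 1 against 177.5 CPM in estrus library 1. By edgeR 0 of the plasma cell members had an unadjusted p under 0.05 in this comparison.

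**Figure D3:**
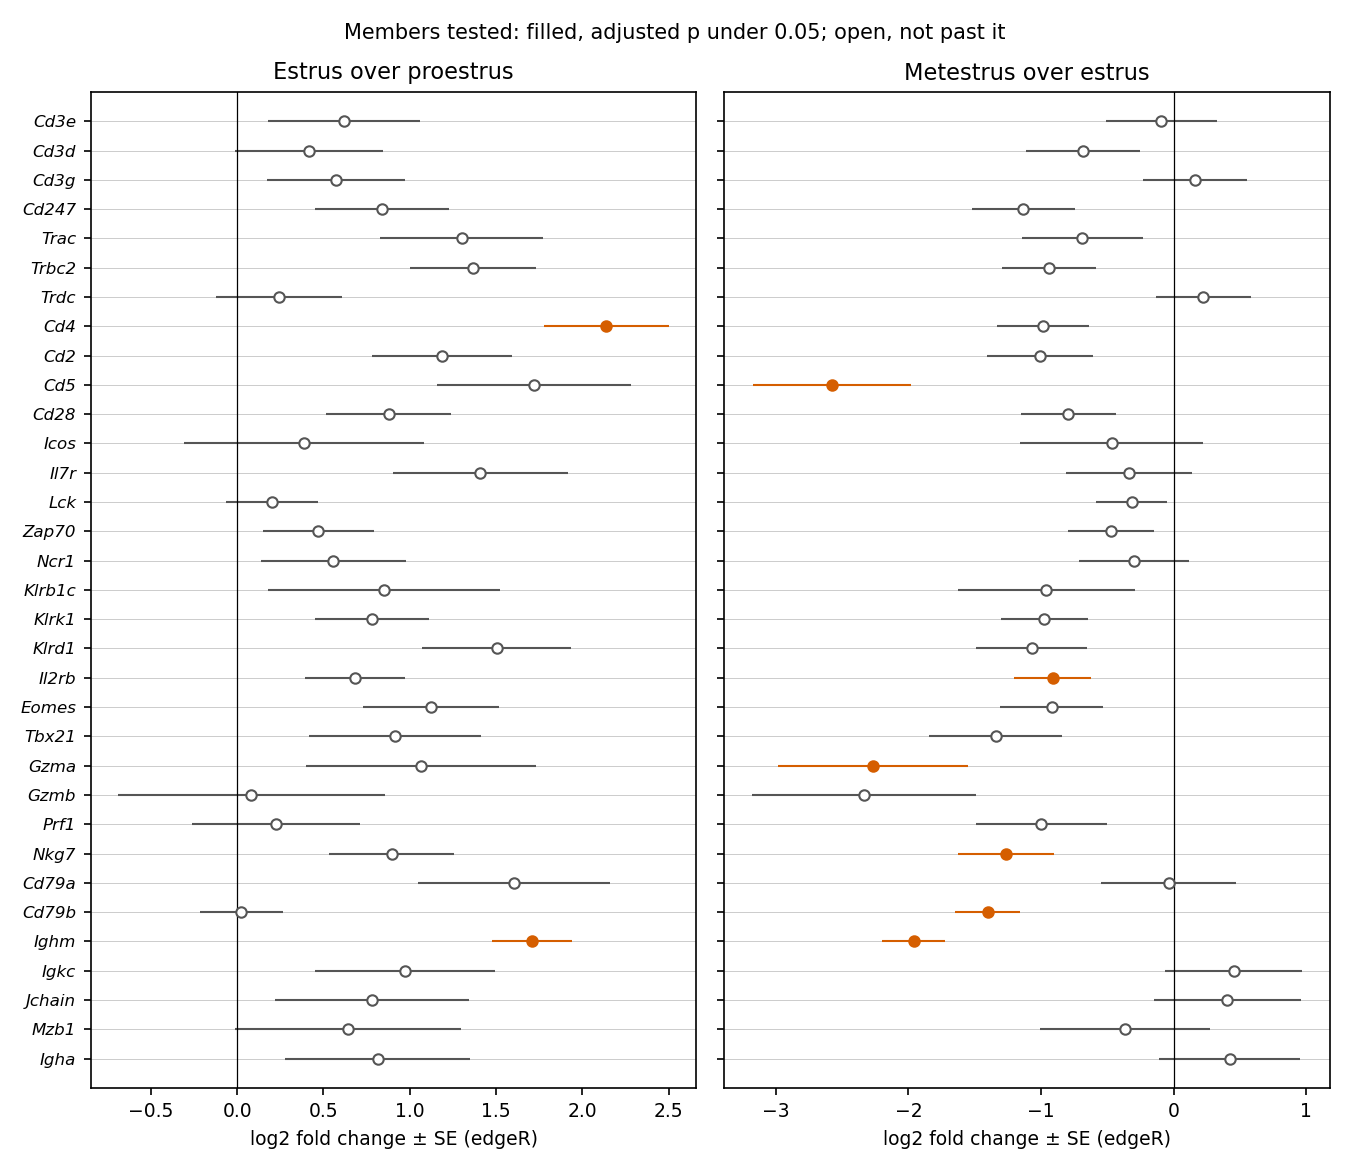
log2 fold change of the 33 tested members in estrus over proestrus (left) and metestrus over estrus (right), from edgeR, with its standard error as bars. Filled points have an adjusted p under 0.05: Cd4 and Ighm on the left, and Cd5, Il2rb, Gzma, Nkg7, Cd79b and Ighm on the right.

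In diestrus over metestrus edgeR called no member in either direction, against 0.282% of the genes tested higher and 0.226% lower. Both diestrus libraries lay above both metestrus libraries for 8 of 33 members, against 24.2% of the genes tested, and below them for 4, against 24.8%. At an unadjusted p under 0.05 there were 2 members higher and 1 lower, and DESeq2 called 0. In proestrus over diestrus, 3 members had both libraries above (30.0% of the genes tested) and 9 had both below (30.7%). Cd79b rose there, 1 of 33 against 12.0% of the genes tested. None fell by edgeR, against 10.4%, with 1 higher and 5 lower at an unadjusted p under 0.05 and 1 and 0 by DESeq2. In estrus over diestrus, 15 had both above (32.0% of the genes tested) and 1 had both below (30.4%). Eomes, Cd79b and Ighm rose there, 3 of 33 against 13.9%, and none fell by edgeR, against 9.97%, with 7 higher and 0 lower at an unadjusted p under 0.05 and 6 and 0 by DESeq2. In metestrus over proestrus, 11 had both above (35.0% of the genes tested) and 5 had both below (34.6%). Cd79b fell there, 1 of 33 against 10.3%, and none rose by edgeR, against 6.68%, with 3 higher and 2 lower at an unadjusted p under 0.05 and 3 and 2 by DESeq2.

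Among the chains of the T cell receptor, none of the 7 members passed the test in any pair of stages by edgeR. DESeq2 also called 0, and in estrus over proestrus 2 of the 7 had an unadjusted p under 0.05 by edgeR. Trac, the alpha chain constant gene, had 3.35 and 3.77 CPM in estrus, against 1.79 and 1.09 CPM in proestrus (log2 fold change 1.30 ± 0.47 SE, adjusted p = 0.108). Trbc2, a beta chain constant gene, had 3.35 and 1.86 CPM in estrus, against 0.974 and 1.04 CPM in proestrus (1.37 ± 0.37, adjusted p = 0.0516). Both genes had their estrus libraries above their proestrus libraries, and Trbc2 has a near-identical neighbour, Trbc1, with which its reads may be split. Cd3e, a CD3 chain, followed another order, with 0.359 and 0.397 CPM in proestrus, 0.550 and 0.620 CPM in estrus, 0.670 and 0.428 CPM in metestrus and 1.08 and 0.756 CPM in diestrus, from 7 to 24 counts. An antisense gene overlaps Cd3e, and the strand setting of the counting is not given in the sources used here. Trdc, the delta chain constant gene of gamma-delta T cells, had 30 to 61 counts in a library, or 61.2 to 196 per 100 counts of Trac, which had 22 to 73. Trdc has the longer exonic length, 3865 bases against 935 for Trac. Per kilobase, Trdc had a mean of 0.565 CPM per kb and a range of 0.349 to 0.705. Trac stood above it in every library, with a mean of 2.51 CPM per kb and a range of 1.17 to 4.03. Cd3d, Cd3g and Cd247, the other CD3 chains and the zeta chain, ranged over 0.759 to 2.00, 1.33 to 4.13 and 0.642 to 2.15 CPM.

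Cd4, the coreceptor of helper T cells, rose in estrus. It had 6.40 and 9.24 CPM in estrus, against 2.26 and 1.29 CPM in proestrus, a log2 fold change of 2.14 ± 0.36 (SE, n = 2 each, adjusted p = 0.0153). Its metestrus libraries had 3.39 and 4.49 CPM and its diestrus libraries 3.73 and 3.43, so that both estrus libraries stood above the other 6 and both proestrus libraries below them. The adjusted p was 0.0853 without proestrus library 2, 0.0513 without estrus library 1 and 0.082 without estrus library 2. The CD3 chains Cd3e, Cd3d and Cd3g had log2 fold changes of 0.62, 0.42 and 0.57 in estrus over proestrus, with no call. Which cells held the Cd4 RNA was not tested. The CD8 chains stayed far lower than Cd4. Cd8b1 had 1 and 0 counts in proestrus, 8 and 12 counts in estrus, 1 and 2 counts in metestrus and 5 and 3 counts in diestrus, and with no filter on low counts its adjusted p in estrus over proestrus was 0.0358. Cd8a, with 4 to 10 counts, showed no such order, and Cd4 had 6.50 to 22.4 counts for each count of Cd8a.

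Cd5, a surface brake on T cell receptor signalling also found on some B cells, fell in metestrus. It had 0.179 and 0.342 CPM in metestrus, against 2.30 and 0.878 CPM in estrus (log2 fold change -2.58 ± 0.59, adjusted p = 0.0175), where the 2 metestrus libraries held 4 and 8 counts. The groups did not overlap, but the call was lost without estrus library 1 (adjusted p = 0.107) and without either metestrus library (0.109 and 0.0703). Its call across the stages held in 5 of 12 alternative settings. Cd2, an adhesion molecule of T and NK cells, had 3.05 and 2.48 CPM in estrus, against 1.18 and 1.24 CPM in proestrus (1.19 ± 0.40, adjusted p = 0.0928). Cd28, the costimulatory receptor, had 2.70 and 2.58 CPM in estrus, against 1.28 and 1.59 CPM in proestrus (0.88 ± 0.36, adjusted p = 0.147). Il7r, the receptor for the survival factor interleukin 7, had 0.462 and 0.546 CPM in proestrus, 1.20 and 1.50 CPM in estrus, 0.893 and 1.24 CPM in metestrus and 2.38 and 1.01 CPM in diestrus, lowest in both proestrus libraries. The costimulator Icos ranged over 0.308 to 1.46 CPM, highest in diestrus library 2 and lowest in proestrus library 1.

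The receptor-proximal kinases varied less. Lck had 9.02 and 12.1 CPM in proestrus, 14.5 and 9.76 CPM in estrus, 9.37 and 10.1 CPM in metestrus and 7.92 and 10.2 CPM in diestrus, with every stage overlapping proestrus, and Zap70 ranged over 1.64 to 3.10 CPM. Lck had 7.33 to 30.4 counts for each count of Cd3e.

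Among the NK receptors and factors, Il2rb fell in metestrus, at 14.2 and 19.0 CPM, against 40.3 and 22.3 CPM in estrus (log2 fold change -0.91 ± 0.29, adjusted p = 0.0477). Estrus library 2 lay nearer to the 18.7 and 20.3 CPM of proestrus than to estrus library 1. Il2rb lost its call with DESeq2's size factors in edgeR, with the replicate number as a block and in the fit of the pair's libraries alone. The call was lost without estrus library 1 (adjusted p = 0.275), without either metestrus library (0.234 and 0.106) and without either proestrus library (0.0816 and 0.0812). Eomes, a T-box factor of NK cells and memory T cells, rose in estrus, at 6.85 and 5.47 CPM, against 2.83 and 1.87 CPM in diestrus (1.39 ± 0.40, adjusted p = 0.0462). Both estrus libraries of Eomes lay above the other 6. Eomes lost its call with the replicate number as a block and in the fit of the pair's libraries alone. The call was lost without either estrus library (adjusted p = 0.187 and 0.111), without diestrus library 2 (0.13) and without either proestrus library (0.0786 and 0.0743). Klrk1 (NKG2D, an activating receptor) had 9.35 and 8.26 CPM in estrus, against 5.49 and 4.76 CPM in proestrus (0.78 ± 0.33, adjusted p = 0.151). Klrd1 (CD94), which pairs with NKG2 receptors, had 4.05 and 3.87 CPM in estrus, against 1.90 and 0.893 CPM in proestrus (1.50 ± 0.43, adjusted p = 0.0607). For both receptors the 2 estrus libraries were close together and above the other 6. Ncr1 (NKp46), which among these members marks NK cells most closely, had 3.74 and 3.92 CPM in proestrus, 7.35 and 3.92 CPM in estrus, 3.08 and 6.07 CPM in metestrus and 4.05 and 3.53 CPM in diestrus, so that estrus library 2 was level with the proestrus libraries and estrus and metestrus overlapped. Klrb1c (NK1.1) and Tbx21 (T-bet) ranged over 0.402 to 2.11 and 0.536 to 2.60 CPM, with the lowest level of each in metestrus library 1, and a second annotated gene on the same strand overlaps Klrb1c.

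Of the cytotoxic granule genes, Gzma and Nkg7 fell in metestrus. Nkg7 had 2.59 and 4.24 CPM in metestrus, against 9.75 and 6.66 CPM in estrus (log2 fold change -1.26 ± 0.36, adjusted p = 0.0356). Gzma, a granzyme, had 0.179 and 0.428 CPM in metestrus, against 2.10 and 0.878 CPM in estrus (-2.27 ± 0.72, adjusted p = 0.0471), from 4 and 10 counts against 42 and 17. The metestrus and estrus libraries of both genes did not overlap. With the replicate number as a block neither gene was called, and DESeq2 did not call Gzma. Both calls were lost without any 1 of the 6 proestrus, estrus and metestrus libraries, with an adjusted p of up to 0.183 for Nkg7 and 0.253 for Gzma. Gzmb, another granzyme, had 0.759 and 0.513 CPM in metestrus, the lowest 2 libraries, and 1.44 and 4.67 CPM in proestrus, 4.55 and 1.91 CPM in estrus, and 4.09 and 1.21 CPM in diestrus. Its libraries of 1 stage differed by up to 3.38-fold, and its adjusted p in metestrus over estrus was 0.0707. Perforin, Prf1, ranged over 0.848 to 3.40 CPM. Estrus library 1 was the highest library for 18 of the 38 members, among them Ncr1, Il2rb, Klrk1, Klrd1, Eomes, Tbx21, Gzma, Prf1 and Nkg7.

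Among B cell members, Ighm (chromosome 12, 113418558 to 113422730, minus strand, GRCm38) rose in estrus and fell in metestrus. It had 97.2 and 84.6 CPM in estrus, against 33.6 and 22.1 CPM in proestrus (log2 fold change 1.71 ± 0.23, adjusted p = 0.00867). It had 22.5 and 24.1 CPM in metestrus, against those estrus levels (-1.96 ± 0.24, adjusted p = 0.00278), and in diestrus it had 44.1 and 32.9 CPM (estrus over diestrus 1.24 ± 0.23, adjusted p = 0.0126). Both estrus libraries lay above the other 6. Whether B cells or plasma cells held the Ighm RNA was not tested. The fall in metestrus passed the test in 14 of 14 alternative settings, and the rise over proestrus in 13 of 14, with an adjusted p of 0.0552 without estrus library 1. Estrus over diestrus also lost its call without that library (0.0735).

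Cd79b (chromosome 11, 106311341 to 106314762, minus strand, GRCm38), a signalling chain of the B cell receptor, followed another order. It had 6.51 and 6.01 CPM in proestrus, 5.70 and 7.02 CPM in estrus, 2.23 and 2.57 CPM in metestrus and 1.26 and 1.51 CPM in diestrus. Proestrus and estrus overlapped (log2 fold change of estrus over proestrus 0.02 ± 0.24) and lay above both other stages. The gene fell in metestrus below estrus (-1.40 ± 0.25, adjusted p = 0.00765) and below proestrus (-1.38 ± 0.25, adjusted p = 0.0158). It rose in proestrus over diestrus (2.17 ± 0.26, adjusted p = 0.00342) and in estrus over diestrus (2.20 ± 0.26, adjusted p = 0.00329). The last 2 calls held in 14 of 14 alternative settings. The fall below estrus was lost without either metestrus library (0.0616 and 0.0536), and that below proestrus without any 1 of the 4 libraries of the pair, at an adjusted p of up to 0.115.

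Cd79a, the partner chain of Cd79b, did not share that order. It had 0.615 and 0.496 CPM in proestrus, 1.70 and 1.70 CPM in estrus, 1.47 and 1.84 CPM in metestrus and 2.16 and 0.706 CPM in diestrus, from 10 to 48 counts, and was lowest in both proestrus libraries. Genes of the epithelium were also higher in proestrus and estrus than in the other stages: 5 epithelial genes, Epcam, Cdh1, Krt8, Krt18 and Krt19, summed to 4432 and 3589 CPM in proestrus, 3132 and 2693 CPM in estrus, 1094 and 1041 CPM in metestrus and 745 and 969 CPM in diestrus. Of these, 5 of 5 fell in metestrus below proestrus, against 10.3% of the genes tested, and 4 of 5 rose in estrus over diestrus, against 13.9%. From proestrus to estrus, where Cd79b overlapped, 4 of 5 had both estrus libraries below both proestrus libraries, against 33.3% of the genes tested. Ms4a1 and Pax5 stayed near 0 counts throughout. The part of the epithelium in the level of Cd79b was not tested.

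**Figure D4:**
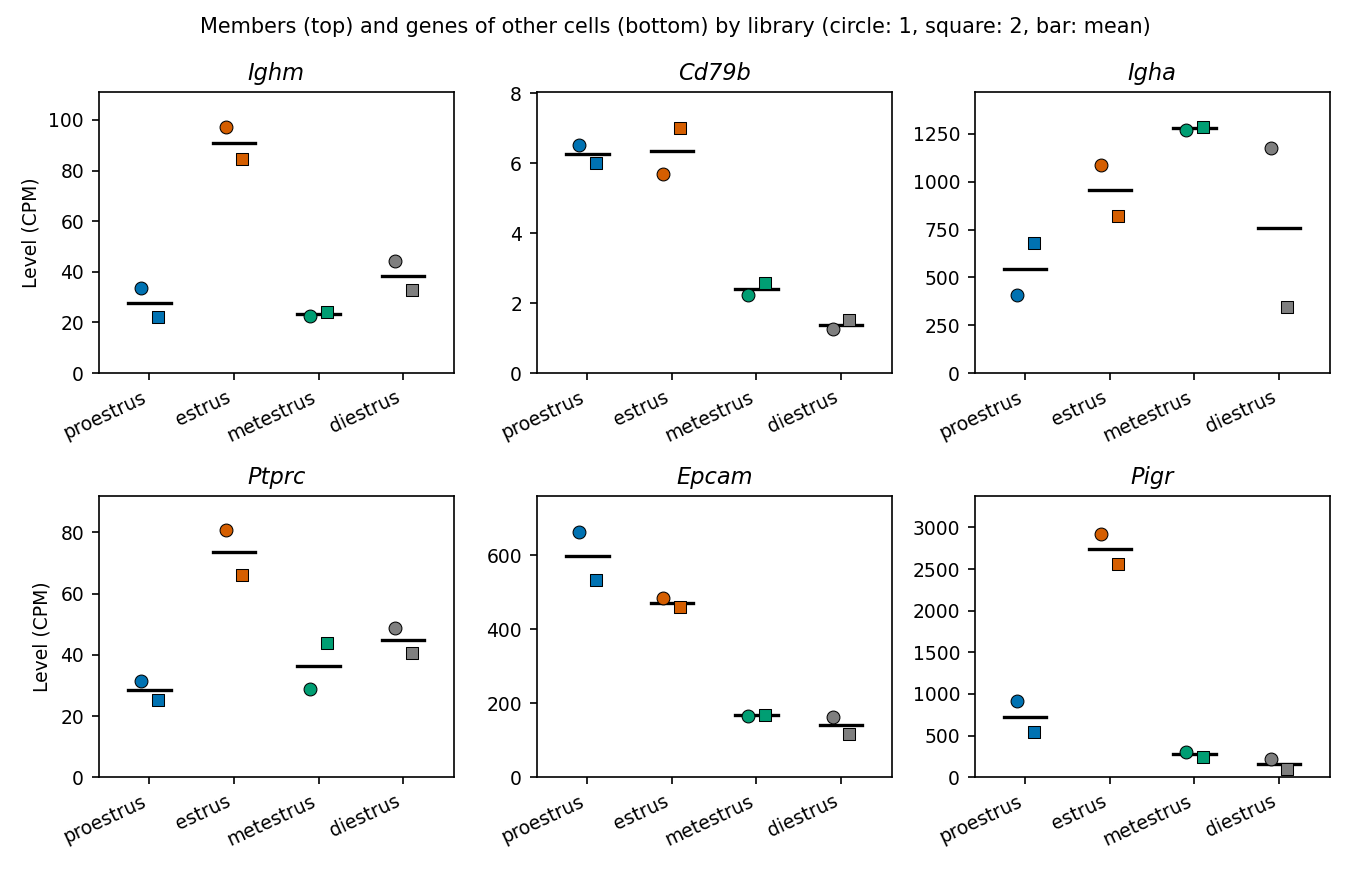
Level in CPM by stage of Ighm, Cd79b and Igha (top) and of the leukocyte gene Ptprc and the epithelial genes Epcam and Pigr (bottom), each on its own axis from 0. Circles and squares are libraries 1 and 2 and bars are stage means. Ighm and Ptprc peak in both estrus libraries, Cd79b and Epcam are high in proestrus and estrus, and Igha is high in metestrus and splits in diestrus.

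The plasma cell members Igha (chromosome 12, 113254830 to 113260236, minus strand, GRCm38), Igkc and Jchain moved together and not with Ighm. Igha had 406 and 678 CPM in proestrus, 1087 and 822 CPM in estrus, 1270 and 1288 CPM in metestrus and 1174 and 345 CPM in diestrus. Igkc had 336 and 497 CPM in proestrus, 866 and 767 CPM in estrus, 1025 and 1212 CPM in metestrus and 1069 and 310.5 CPM in diestrus. Jchain had 66.0 and 122 CPM in proestrus, 178 and 145 CPM in estrus, 178 and 249 CPM in metestrus and 193 and 56.3 CPM in diestrus. For each of the 3 genes diestrus library 2 was the lowest of the 8 libraries, diestrus library 1 was near the metestrus libraries, and both proestrus libraries lay below both estrus libraries. Mzb1, a chaperone of immunoglobulin assembly, was low, at 6 to 30 counts in a library, and did not follow these 3 genes. It had 0.308 and 1.09 CPM in proestrus and 0.650 and 1.55 CPM in estrus. Its metestrus libraries had 0.759 and 0.941 CPM, and its diestrus libraries had 0.630 and 0.656 CPM, with no split.

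No plasma cell member passed the test in any pair by edgeR in the fit of 8 libraries. In metestrus over proestrus, the difference between stages was 1.24 ± 0.54 for Igha (log2, adjusted p = 0.159), 1.43 ± 0.52 for Igkc (adjusted p = 0.109) and 1.19 ± 0.56 for Jchain (adjusted p = 0.187). At an unadjusted p under 0.05 there was 1 of these members, and DESeq2 called 2, Igkc (adjusted p = 0.0124) and Igha (0.0402). The diestrus libraries enter that fit through the shared estimate of spread. Without diestrus library 1, edgeR's adjusted p in metestrus over proestrus was 0.0153 for Igha, 0.00475 for Igkc and 0.0315 for Jchain, and without diestrus library 2 it was 0.0156, 0.00485 and 0.0316.

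The number of members called elsewhere also changed when a diestrus library was left out, as it did for some other libraries. Without diestrus library 1, 11 members passed across the stages, against 47.5% of the genes then tested, and without diestrus library 2 also 11, against 50.3%. In estrus over proestrus 10 members rose without either library, Trac, Trbc2, Cd4, Cd8b1, Cd2, Il7r, Klrd1, Cd79a, Ighm and Igkc, against 12.4% and 12.2% of the genes tested. In metestrus over estrus 10 members fell without either, against 22.2% in each case. Diestrus library 1 held 14412 CPM over 5 smooth muscle genes, against 5791 to 8848 CPM in the other 7 libraries, and what set it apart was not tested.

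The shares of the immunoglobulin genes varied within stages as well as between them, and were not tested. Igha made up 91.1% and 95.8% of the counts of the heavy chain constant genes in proestrus libraries, 90.6% and 87.6% in estrus libraries, 97.3% and 96.8% in metestrus libraries and 94.6% and 88.5% in diestrus libraries. Ighm made up 7.53% and 3.12% in proestrus libraries, 8.10% and 9.02% in estrus libraries, 1.72% and 1.81% in metestrus libraries and 3.55% and 8.44% in diestrus libraries. Both metestrus libraries had the lowest 2 Ighm shares, the proestrus and diestrus libraries spread over 3.12% to 8.44%, and a share also moves when Igha alone moves. The 95% Wilson intervals of the Ighm share were 1.58% to 1.88% in metestrus library 1 and 8.61% to 9.45% in estrus library 2. These intervals cover counting error alone, since reads without molecular identifiers are not independent molecules. The IgG genes together made up 0.926% to 3.25%. Ratios within the IgA set varied little, with 14.0 to 19.3 Jchain counts and 73.2 to 94.2 Igkc counts per 100 Igha counts, while Igha itself varied 3.74-fold in CPM. The lambda constant genes Iglc1 and Iglc2 came to 0.327 to 1.07 counts per 100 of Igkc.

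Each antibody-secreting clone joins 1 variable (V) gene to its constant gene, so the shares of V genes describe the make-up of the antibody transcripts of a library. The table listed 183 Ighv genes of the heavy chain, of which 94 had at least 10 counts in some library and 10 had at least 10 in every library. The leading Ighv gene was a different one in each of the 8 libraries. The reference sequences of these 8 genes are shown to identify the leaders and how alike they are, Ighv3-6 being 93.2% identical to Ighv3-1 over its last 250 bases: each line gives the last 60 bases of the germline V transcript, 5′ to 3′, with the codon of the conserved cysteine before the third complementarity-determining region in capitals.
Ighv3-6: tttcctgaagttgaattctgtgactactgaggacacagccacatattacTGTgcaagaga
Ighv1-22: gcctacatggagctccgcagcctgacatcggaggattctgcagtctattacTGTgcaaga
Ighv1-64: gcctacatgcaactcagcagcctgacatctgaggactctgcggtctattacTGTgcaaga
Ighv3-1: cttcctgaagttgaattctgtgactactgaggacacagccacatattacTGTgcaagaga
Ighv1-18: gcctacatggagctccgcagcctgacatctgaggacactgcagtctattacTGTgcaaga
Ighv14-4: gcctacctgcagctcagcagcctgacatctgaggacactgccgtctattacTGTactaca
Ighv5-16: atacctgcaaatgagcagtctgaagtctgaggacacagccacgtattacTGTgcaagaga
Ighv1-9: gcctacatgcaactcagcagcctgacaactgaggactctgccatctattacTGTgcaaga

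The sequences are those of GENCODE release M21 on GRCm38, where the 8 genes lie on the minus strand of chromosome 12 between 113838526 and 115508031. Over the last 250 bases each was 84.8% to 97.2% identical to its nearest Ighv gene, and ICR mice differ from the reference strain, so reads of near-identical or mutated V genes may be split between genes. Ighv5-16 held 28.9% of the Ighv counts of diestrus library 1 (1824 of 6302 counts) and at most 1.13% in any other library. Ighv1-22 held 20.4% in proestrus library 2, Ighv3-1 14.6% in estrus library 2, Ighv1-64 13.5% in estrus library 1 and Ighv3-6 13.5% in proestrus library 1. The leaders held less in the other 3 libraries, with Ighv1-18 at 8.21% in metestrus library 1, Ighv14-4 at 7.64% in metestrus library 2 and Ighv1-9 at 8.21% in diestrus library 2. Ighv1-9 was the exception, with up to 11.5% elsewhere, and the other 7 held at most 7.44% in any library they did not lead. The 5 leading Ighv genes held 65.0% of the Ighv counts in diestrus library 1 and 32.5% to 45.7% in the other 7. Among 160 Igkv genes of the kappa chain there were 7 different leaders, since Igkv5-43 led in proestrus library 2 and in diestrus library 2. Libraries of 1 stage thus shared no leading V gene of either chain.

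**Figure D5:**
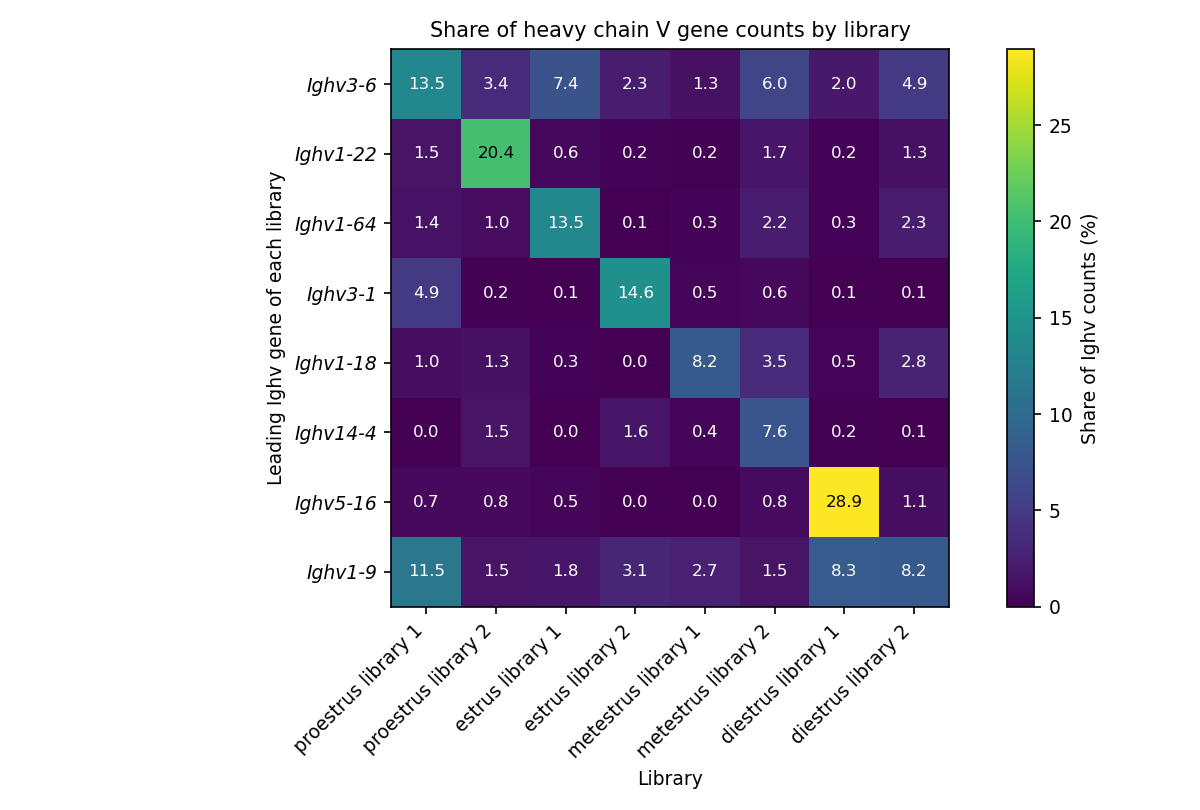
Share, in percent, of each library's heavy chain V gene (Ighv) counts held by the leading Ighv gene of each of the 8 libraries, with genes in rows and libraries in columns. The diagonal, each gene in the library it leads, runs from 7.64% to 28.9%, and off the diagonal Ighv1-9 in proestrus library 1 is highest at 11.5%.

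Other genes of the same lineages, from lists chosen beside the members, gave a mixed count, to be read against all genes tested, of which 8.12% rose and 6.94% fell in estrus over proestrus and 16.7% rose and 19.5% fell in metestrus over estrus. Of 20 further T cell genes 17 were tested, and in estrus over proestrus 2 rose and 1 fell. In metestrus over estrus Lcp2, Ccr7, Cd69 and Skap1, genes of T cell signalling, homing and retention, fell and Thy1 rose. Ccr7, the receptor that guides T cells and dendritic cells to lymph nodes, had 3.15 and 2.17 CPM in estrus, against 0.256 and 0.347 CPM in proestrus (log2 fold change 3.11 ± 0.49, adjusted p = 0.0127), and Il2ra rose as well (1.29 ± 0.29, adjusted p = 0.0324). Thy1, which stromal cells also express, fell to 49.1 and 40.0 CPM in estrus, against 210 and 136 CPM in proestrus (-1.96 ± 0.41, adjusted p = 0.0259). The cytokine and contact genes of effector T cells were near 0, with 4 counts of Ifng, 8 of Cd40lg and 7 of Ctla4 in all 8 libraries.

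Of 18 further NK genes 15 were tested, and 2 rose in estrus over proestrus (8.12% of all genes tested). In metestrus below estrus 3 fell (19.5% of all genes tested), Sh2d1b1, Itga2 and Il18rap. Sh2d1b1, an adapter of NK receptors, had 2.50 and 2.53 CPM in estrus, against 0.410 and 0.496 CPM in proestrus (2.46 ± 0.33, adjusted p = 0.00806). Itga2 (CD49b), which epithelium also expresses, had 169 and 104 CPM in estrus, against 56.0 and 52.0 CPM in proestrus (1.34 ± 0.23, adjusted p = 0.0159). Il18rap, a chain of the interleukin 18 receptor, had 1.70 and 2.74 CPM in metestrus, against 10.8 and 9.19 CPM in estrus (-2.17 ± 0.34, adjusted p = 0.0054).

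Of 12 further B cell genes 10 were tested, and Spib alone among them rose in estrus over proestrus (1.55 ± 0.39, adjusted p = 0.0441). In metestrus over estrus the B cell kinase Blk rose (1.73, adjusted p = 0.00953) and the adapter Blnk fell (-1.19, adjusted p = 0.0343). Fcer2a (CD23), the low-affinity IgE receptor, was on a list of lymph node genes, is named here after its values were seen, and had 3.90 and 1.44 CPM in estrus, against 0.0513 and 0.149 CPM in proestrus, which is 78 and 28 counts against 1 and 3. It rose in that comparison (4.65 ± 1.05, adjusted p = 0.0328), while Glycam1, Madcam1 and Cr2, lymphoid tissue genes of the same list, had 6, 17 and 21 counts in all 8 libraries. Of the 6 genes of that list 3 were tested. The 2 tested beside Fcer2a had both estrus libraries below both proestrus libraries, against 33.3% of the genes tested. Summed, the 6 genes had 120 and 68.8 CPM in proestrus, against 49.2 and 51.2 CPM in estrus. Of 11 further plasma cell genes 9 were tested, and 3 rose (Tnfrsf13b, Derl3 and Ighg2b) and 2 fell (Sdc1 and Fkbp11) in estrus over proestrus. In metestrus over estrus Derl3 fell, and Sdc1 and Fkbp11 rose. Derl3, of the endoplasmic reticulum, had 11.8 and 21.0 CPM in estrus, against 3.18 and 3.52 CPM in proestrus (2.29 ± 0.51, adjusted p = 0.0319). Sdc1 (CD138), which epithelium also carries, fell to 161 and 135 CPM in estrus, against 347 and 345 CPM in proestrus (-1.23 ± 0.13, adjusted p = 0.00425).

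Of 20 genes that recruit, feed or serve lymphocytes 16 were tested, and 1 rose in estrus over proestrus (8.12% of all genes tested). In metestrus below estrus 5 fell (19.5% of all genes tested), Pigr, Ccl28, Tnfsf13, Il18 and the adhesion molecule Vcam1. Pigr, the epithelial receptor that exports IgA, had 2925 and 2562 CPM in estrus, against 916 and 542 CPM in proestrus (1.91 ± 0.43, adjusted p = 0.0316). In metestrus it had 309 and 241 CPM (metestrus over estrus -3.32 ± 0.45, adjusted p = 0.00361), where Igha was highest, so that Pigr counts per 100 Igha counts were 225 and 79.9 in proestrus libraries, 269 and 312 in estrus libraries, 24.3 and 18.7 in metestrus libraries and 18.5 and 27.3 in diestrus libraries. Ccl28, an epithelial chemokine that draws IgA plasma cells, had 46.7 and 48.4 CPM in metestrus, against 245 and 162 CPM in estrus (-2.10 ± 0.28, adjusted p = 0.00357). Tnfsf13 (APRIL), a plasma cell survival factor, fell in metestrus as well (-1.92 ± 0.24, adjusted p = 0.00299). In proestrus over diestrus Tnfsf13 rose (1.87 ± 0.24, adjusted p = 0.00433), and Tnfsf13b (BAFF), which supports B cells, fell, with 3.79 and 3.97 CPM in proestrus, against 9.67 and 11.0 CPM in diestrus (-1.41 ± 0.20, adjusted p = 0.00515). Il15ra, which presents interleukin 15 to NK cells, was highest in diestrus, at 20.6 and 18.6 CPM, against 4.87 and 6.76 CPM in metestrus (1.75 ± 0.23, adjusted p = 0.0427), and Il15 itself ranged over 3.20 to 9.13 CPM with no call across the stages. The call of Il15ra was lost without any 1 of the 6 proestrus, estrus and metestrus libraries, at an adjusted p of up to 0.313. Among the calls in estrus over proestrus, those of Ccr7, Il2ra, Thy1, Sh2d1b1, Spib, Derl3 and Pigr were each lost without any 1 of the 4 libraries of the pair, at an adjusted p of up to 0.198. The falls of Pigr, Ccl28, Tnfsf13 and Il18rap in metestrus below estrus held without any 1 of the 8.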

How the data were processed

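The authors deposited 1 table of raw counts per gene, made with STAR and featureCounts of the Subread package on GRCm38 per the submitters' processing notes. Which versions, annotation and strand setting they used was not given in the sources used here. Per the labels' protocols the libraries are stranded. The 38 members and the gene lists were chosen with earlier results of these data known. Every member is named, and from other lists up to 6 genes with the smallest p across stages and those called in a pair given. Of 52308 genes, 18114 passed filterByExpr by stage. Counts were scaled by TMM and fitted with edgeR 4.0.16 (R 4.3.3) by quasi-likelihood over the 8 libraries, with a coefficient for each stage, a test across stages and the 6 pairs of stages, two-sided, Benjamini-Hochberg adjusted over the genes tested. The code was tested on simulated data. Exonic length and coordinates come from GENCODE M21 on GRCm38, which holds 52058 of the IDs. Alternatives were DESeq2 1.42.0, its size factors, other filters (none, or 1 CPM in 2 libraries), the replicate number as a block, fits of 1 pair and leaving out each library. V gene shares and count ratios were chosen after the data were seen and carry no test.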

Additional observations from a re-analysis of the deposited data

How the results depend on the processing

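With 2 libraries a stage, 1 library decided many calls. Leaving out 1 library at a time gave 2 to 11 members changed across the stages, 0 to 10 higher and 0 lower in estrus than in proestrus, and 1 to 10 lower in metestrus than in estrus. It gave 0 to 1 lower in diestrus than in metestrus, 0 to 4 lower in proestrus than in diestrus, 1 to 7 higher in estrus than in diestrus, 0 to 4 higher in metestrus than in proestrus and 0 to 1 lower there. With no filter on low counts 7 members changed across the stages, 1 was lower in proestrus than in diestrus (also 1 at 1 CPM in 2 libraries), 5 were higher in estrus than in diestrus and 1 was higher in metestrus than in proestrus. DESeq2 gave 6 higher in estrus than in diestrus, and 3 higher and 2 lower in metestrus than in proestrus. Fits of the 4 libraries of a pair gave 5 higher in estrus than in proestrus, 1 higher in metestrus than in estrus and 4 higher in metestrus than in proestrus. The log2 ratios of summed levels in estrus over proestrus ranged, over left-out libraries, from 0.65 to 0.95 for T cell, 0.37 to 1.03 for NK and cytotoxic, 1.27 to 1.79 for B cell and 0.57 to 1.26 for plasma cell members. Without the highest member they were 1.06 for T cell and 0.23 for B cell members.

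With the replicate number as a block, 3 members were lower in metestrus than in estrus. Whether equal numbers pair the libraries is not in the labels. The correlations, over genes, of the deviations of equally numbered libraries from their stage means ran from -0.09 to 0.14 over the 6 pairs of stages. Correlations over all genes cannot decide this, since a pairing may touch only a part of the genes. Among the member comparisons that passed the test in the fit of 8 libraries or in an alternative, leaving out 1 library reversed 5 log2 fold changes, none of them called in the fit of 8. Other comparisons, with no call in any setting, were not followed for sign. In proestrus over diestrus they ran from -1.35 (without diestrus library 2) to 0.41 (without diestrus library 1) for Igkc and from -1.11 to 0.64 for Igha. In estrus over diestrus they ran from -0.40 (without diestrus library 2) to 1.36 (without diestrus library 1) for Igkc, from -0.27 to 1.49 for Jchain and from -0.31 to 1.44 for Igha. The cause was not tested. At this depth a difference between stages was not detectable for Cd8a, Foxp3, Ms4a1 and Pax5, with at most 10 counts in a library.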
